A study of Pimephales promelas with 27 samples.

Results

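Newly hatched fathead minnow (Pimephales promelas) exposed as embryos to 1.25 ppm of pure naphthenic acids were compared with fish of the salt control of the same source. Both groups were found by their array titles, and they make up 6 of the 27 arrays of the series, with 3 arrays at 1.25 ppm (replicates 1 to 3) and 3 of salt (replicates 7 to 9). The series asked how larvae respond to increasing doses of naphthenic acids from 3 sources after exposure through the embryo stage. The sources were fresh oil sands, aged oil sands and pure naphthenic acids, and each had a salt control and a pair of doses, which made 9 groups of 3 arrays. The labels give the developmental stage as newly hatched and the molecule as total RNA, and name no strain, organ, age in days or composition of the salt. Whether replicates were raised in different tanks or from different spawns is not in the labels, so the p-values speak of the spread among arrays, part of which may be technical.

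Naphthenic acids are carboxylic acids with aliphatic chains and saturated rings that occur in bitumen and crude oil. They dissolve into the water used to extract bitumen from oil sand. They act as surfactants and are known to be toxic to the early life stages of fish. The fathead minnow is a small North American freshwater fish that is widely used in toxicity testing. Its embryo lives on yolk within the egg envelope until it hatches, so an exposure through the embryo stage falls in a time when organs form.

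Each array held 15208 probes beside its control spots. Of these, 12949 were tested, namely those flagged as well above background by 3 or more of the 6 arrays compared. Levels are given as log2 of the processed signal relative to the 75th percentile of the same array, so that 1 unit is a 2-fold difference and 0 is the 75th percentile. The files name probes by contigs or sequence numbers and do not pair them with genes, and of the probe names and systematic names 0 were found among the 64593 genes listed in the reference. Changes are therefore given for probes by identifier, and gene groups, pathways and markers of organs could not be described. In RNA from whole samples, fewer cells of a type and less RNA per cell cannot be told apart.

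The unscaled 75th percentile lay between 779 and 1099 intensity units on the 1.25 ppm arrays and between 1123 and 1498 on the salt arrays, so that every salt array was brighter than every exposed array, and between 582 and 2044 over the series. The part of this brightness in the results was not tested. Scaling each array on this percentile left a median difference of −0.04 log2 units over all tested probes. The 1.25 ppm arrays had 11685 to 13868 probes well above background, against 12369 to 13107 for the salt arrays, and no probe spot was saturated. Of the 27 arrays, 5 stood apart, because the authors' value table and the scanner file ranked their probes differently (Spearman correlation 0.871 to 0.982, against 0.9996 to 0.9997 for the other 22). They were fresh 10 ppm replicate 1, aged salt replicates 7 and 9 and aged 20 ppm replicates 4 and 6. None of the pure arrays was among them, and they enter this comparison only through the spread of each probe, which was estimated over all arrays.

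At 1.25 ppm, 28 probes were higher than in salt and 0 were lower, by limma at an adjusted p below 0.05 (0.216% and 0% of the tested probes). The rises had a median of 1.39 log2 units, or 2.62-fold, and spread between 0.93 and 5.16. Of the 28, 24 rose at least 2-fold and 5 rose at least 4-fold. All 28 were well above background on the 3 exposed arrays, and 26 were on the 3 salt arrays. The rest met the filter only with their exposed arrays counted, the group in which they were higher. At an unadjusted p below 0.05 there were 797 probes (6.15%), of which 449 were higher (3.47%) and 348 lower (2.69%). The smallest adjusted p of a lower probe was 0.18.

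By their medians the rises were alike on the 3 exposed arrays. Set against the mean of the salt arrays, the 28 probes had a median of 1.42 on replicate 1, 1.41 on replicate 2 and 1.42 on replicate 3, and each of the 28 was above that mean on each array. The largest differences were less alike, at 4.27, 6.29 and 4.93 in the same order. Replicates 1 and 2 each held the highest level for 11 of the probes and replicate 3 for 6. For all 28 the lowest exposed array lay above the highest salt array, by a median of 0.95 log2 units and at least 0.27. Among all tested probes 958 (7.4%) lay wholly above the salt arrays in this way and 1256 (9.7%) wholly below. The probes were called with these same arrays, so the like medians and the absence of overlap among the 28 are a description and not a further check.

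**Figure D1:**
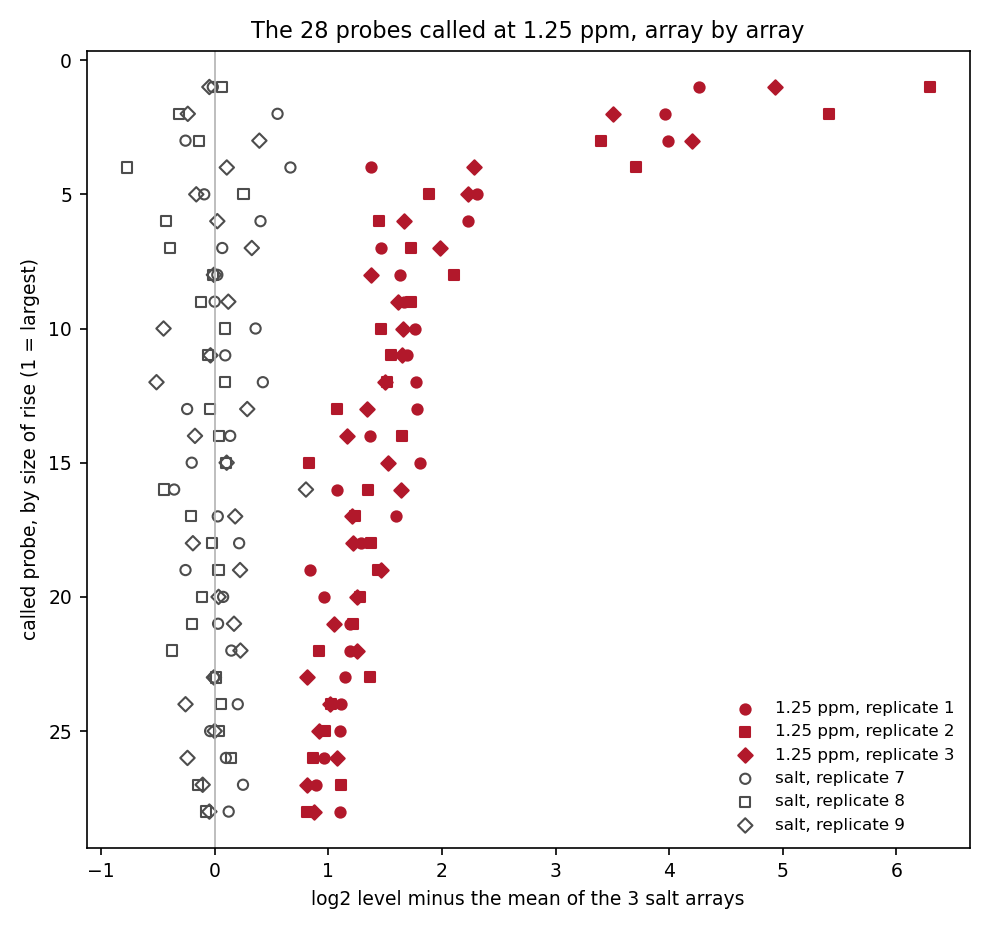
Levels of the 28 called probes on each of the 6 arrays, as log2 difference from the mean of the 3 salt arrays (x axis), with 1 row for each probe, ordered by the size of the rise (y axis). Filled red symbols are the 3 arrays at 1.25 ppm and open symbols the 3 salt arrays; no row has overlapping groups, and the top 3 rows have the largest mean rises.

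No gap in p separated the called probes from the rest. The largest adjusted p among them was 0.0477, and the next probe, with a difference of 0.76, had 0.0514 in limma. Without the 5 arrays that stood apart, 55 probes were higher (0.425%) and 3 lower (0.0232%), all 28 among the 55, and 1395 had an unadjusted p below 0.05 (10.8%). The median standard error over all probes was 0.22 in that fit, against 0.28 with all arrays. Counts also moved with array weights (525 higher, 529 lower), with a trended and robust prior (44), with only the 6 compared arrays (4) or the 9 pure arrays (12) in the fit, with quantile normalization (17) and with normexp background correction (0, with 242 at an unadjusted p below 0.05). Leaving out 1 array left 9, 14 and 16 rises without exposed replicates 1, 2 and 3, and 16, 6 and 15 without salt replicates 7, 8 and 9. All 28 differences were above 0 in each of these fits, which share arrays with the fit that chose the probes. Where only the arrays, their weights or the prior changed, the sign was fixed in advance, as the groups of these probes do not overlap.

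The arrays lay on 4 slides. The 1.25 ppm arrays were on slides 4, 1 and 2, and the salt arrays on slides 2, 3 and 3. With slide as a fixed block 32 probes were called, 22 of them among the 28, and with slide as a random block 35, which held all 28. Slide 2 carried 1 array of each group, and there all 28 were higher on the exposed array, by a median of 1.28, although those arrays had helped to choose them. A fit without these arrays called 11 probes, of which 9 were higher within slide 2 (81.8%, median 1.08), against 39.7% of all tested probes. These shares come from 1 pair of arrays, so the probes are not replicates. The direction of the 11 in that fit is not given here, and the 9 are a description.

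Among the called probes the largest rise was that of UF_Ppr_AF_106707. Its level was −1.18, 0.85 and −0.51 on the 1.25 ppm arrays, against −5.46, −5.38 and −5.49 on the salt arrays. The salt arrays were nearly equal while the exposed arrays spread over about 2 units, and the groups did not overlap. The processed signals on the salt arrays were 25.5, 35.9 and 28.3 intensity units, low although flagged well above background. The fold below is thus taken against a dim salt level. The mean was −0.28 ± 1.03 (SD, n = 3 arrays) at 1.25 ppm and −5.44 ± 0.06 (SD, n = 3 arrays) in salt. The standard errors given here and below draw on the spread over all 27 arrays. UF_Ppr_AF_106707 thus rose by 5.16 ± 0.86 log2 units (SE, n = 3 per group), or 35.8-fold (limma adjusted p = 0.0096). Within slide 2 the exposed array was higher by 4.95. UF_Ppr_AF_106707 missed the threshold in 6 of 24 alternatives. Its limma adjusted p was 0.0815 without exposed replicate 2, 0.0654 without salt replicate 8 and 0.0599 with slide as a fixed block. It was 0.0594 with only the 6 arrays in the fit and 0.207 with normexp, where the difference was 3.57. Normexp on only the 6 arrays gave 0.0164 for the same difference, and normexp without the 5 arrays that stood apart gave 0.678.

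UF_Ppr_AF_109055 had the next largest rise. Its level was −2.19, −0.75 and −2.65 on the 1.25 ppm arrays, against −5.6, −6.47 and −6.39 on the salt arrays, of which 1 was well above background. Exposed replicate 2 was the highest array for both probes, and again the groups did not overlap. UF_Ppr_AF_109055 rose by 4.29 ± 0.86 log2 units (SE, n = 3 per group), or 19.6-fold (limma adjusted p = 0.037), against a salt mean in which 1 of 3 arrays was measured above background. It met the filter of 3 of the 6 arrays only with its exposed arrays counted. With no filter on dim probes its limma adjusted p was 0.0496, and a filter on all 6 arrays left it out. Within slide 2 the exposed array was higher by 2.96. With normexp the difference of UF_Ppr_AF_109055 was 2.44 (limma adjusted p = 1, and 0.0529 with normexp on only the 6 arrays). With slide as a fixed block it was 3.56 (0.175). The adjusted p was 0.14 with only the 6 arrays in the fit, 0.0512 with the 9 pure arrays, between 0.0838 and 0.234 when any of the 6 arrays was left out, and 0.00184 without the 5 arrays that stood apart.

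The smallest adjusted p belonged to the probe with the third largest rise, picked out here after its values were seen. Its level was 0.48, −0.11 and 0.69 on the 1.25 ppm arrays, against −3.77, −3.65 and −3.12 on the salt arrays. The difference was 3.87 ± 0.46 log2 units (SE, n = 3 per group; limma adjusted p = 0.000837), with a spread within groups well under 1 unit. The next in size, at 4.43-fold or more, were 2 further probes with rises of 2.46 and 2.15. The first of them was dim and uneven, at −4.83, −2.5 and −3.92 on the exposed arrays against −5.54, −6.98 and −6.1 on the salt arrays. The other was brighter and even, at 1.14, 0.72 and 1.06 on the exposed arrays against −1.26, −0.91 and −1.33 on the salt arrays. The remaining 23 rises lay below 2 units.

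No fall passed the test with all arrays. The lower probe with the smallest p was UF_Ppr_AF_107363, at 2, 1.54 and 1.64 on the 1.25 ppm arrays against 2.43, 2.55 and 2.68 on the salt arrays, a difference of −0.83 ± 0.21 log2 units (SE, n = 3 per group; limma adjusted p = 0.18). Next was UF_Ppr_AF_111748, at 1.09, 0.89 and 0.84 on the exposed arrays against 1.36, 1.54 and 1.63 on the salt arrays, a difference of −0.57 ± 0.15 (SE, n = 3 per group; limma adjusted p = 0.188). In both the groups did not overlap, as in 1256 probes overall. UF_Ppr_AF_111748 was 1 of the 3 falls called without the 5 arrays that stood apart (adjusted p = 0.0383), and UF_Ppr_AF_107363 was not (adjusted p = 0.131).

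**Figure D2:**
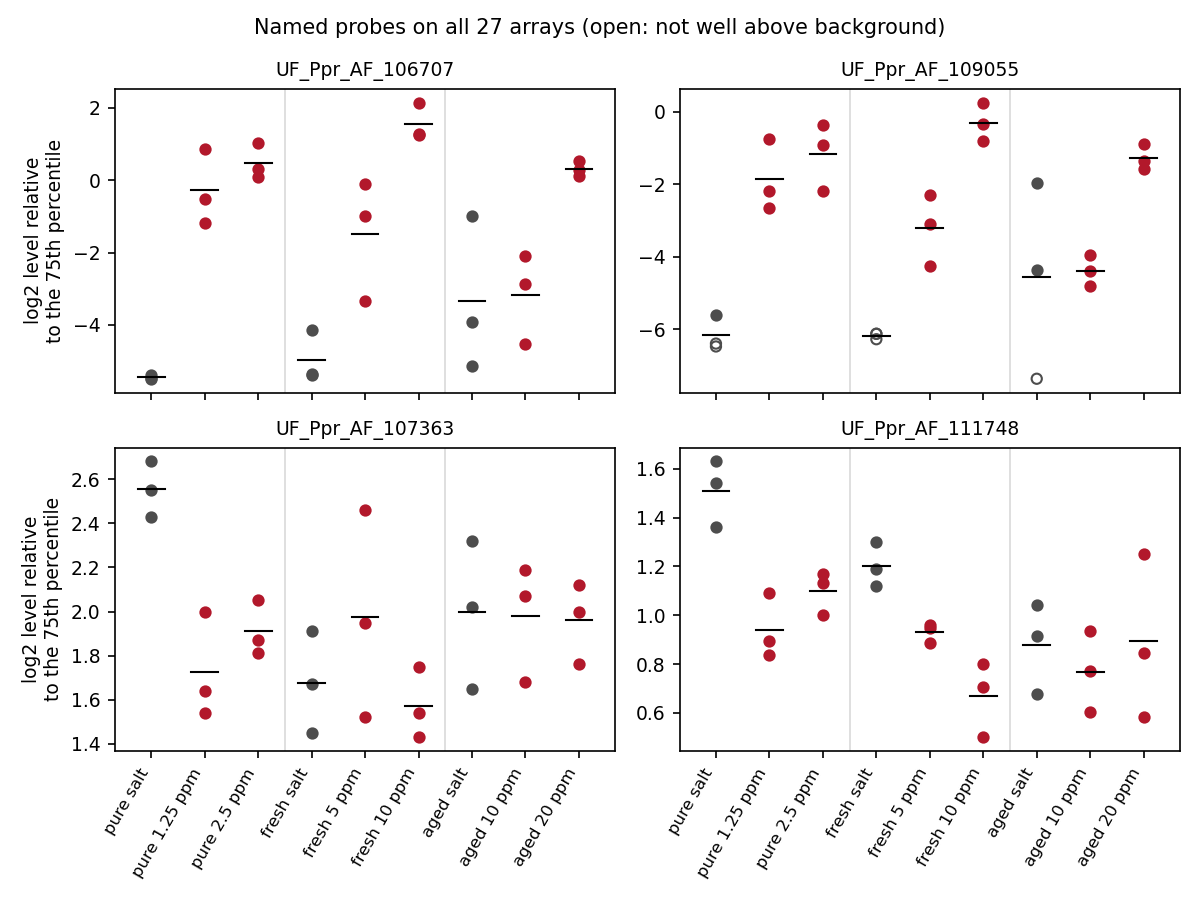
Levels of the 4 probes given by identifier (log2 relative to the array's 75th percentile, y axis) on all 27 arrays, in groups by source and dose (x axis), with exposed arrays in red, salt arrays in grey and the group mean as a bar. The upper probes lie above all of their salt arrays at pure 1.25 and 2.5 ppm and at fresh 5 and 10 ppm, while the aged salt arrays of both spread widely; the lower probes differ by under 1 unit.

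A large difference was not sufficient for a call. Of the 150 probes at least 2-fold higher at 1.25 ppm, 24 were called, and of the 98 at least 2-fold lower, 0 were. The median standard error was 0.27 for those 24 and 0.52 for the other 126. Among the probes at least 2-fold lower it was 0.84, and 22 of the 98 were well above background on all 6 arrays. The largest difference of all, 5.57 ± 2.43 (SE, n = 3 per group; limma adjusted p = 0.744), came from 1 array. That probe was at 7.58 on exposed replicate 1 and at −3.6 and −2.57 on replicates 2 and 3, against −4.69, −5.52 and −5.09 on the salt arrays. The largest difference downwards, −3.30 ± 2.19 (SE, n = 3 per group; limma adjusted p = 1), was likewise uneven, at −0.32, −6.12 and −6.3 on the exposed arrays and 0.23, −1.5 and −1.57 on the salt arrays. Both were picked out after their values were seen.

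**Figure D3:**
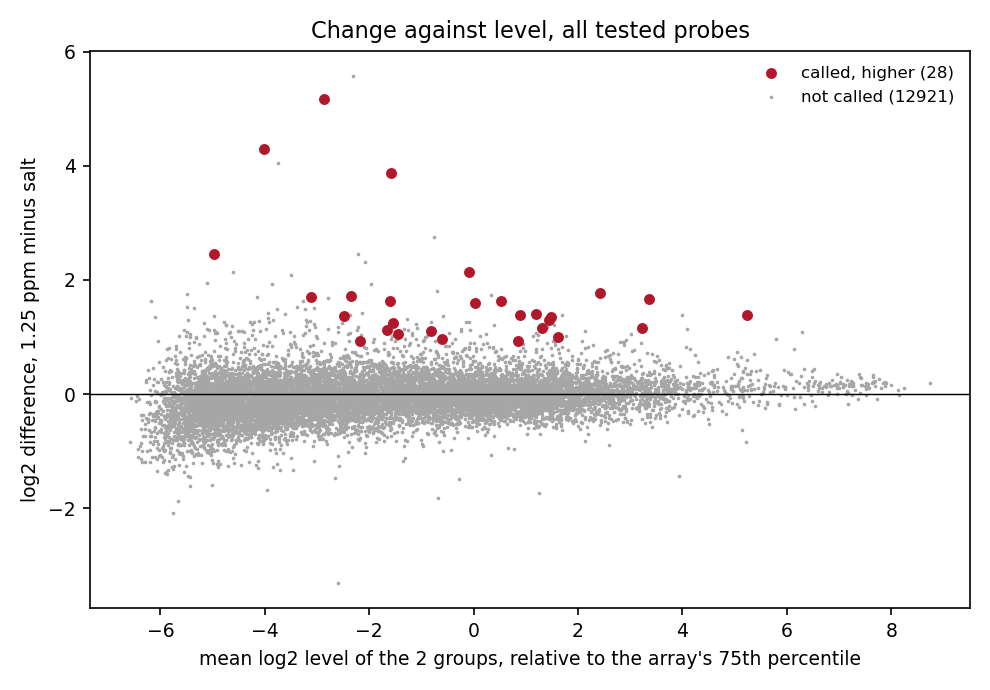
Difference between 1.25 ppm and salt (log2, y axis) for each of the 12949 tested probes against the mean level of both groups (log2 relative to the 75th percentile, x axis), with the 28 called probes in red. All called probes lie above 0, and among dim probes many uncalled differences are as large as the called ones.

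Brighter probes were called more often and had smaller standard errors, which draw on the spread over all 27 arrays. In 4 bins of 3237 or 3238 probes, ordered by mean level from dim to bright, 1, 4, 9 and 14 of the called probes were found. The median standard error was 0.69, 0.36, 0.20 and 0.19 in the same order. The median difference was −0.18, −0.08, −0.01 and 0.03, so that the dimmest bin lay slightly below 0 on the exposed arrays. For 58.7% of the tested probes (7599) the 95% interval of the difference lay within 1 log2 unit either way, a share of 8.93% in the dimmest bin and 91.7% in the brightest.

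Of all 15208 probes, 0 were well above background on the 3 exposed arrays and on no salt array, and 2 had the opposite pattern. Of the 28 called probes, 25 were named by a contig, 2 by a sequence number and 1 otherwise, while contigs made up 80.9% and sequence numbers 18.9% of the tested probes. Among the tested probes 236 sequences were measured by a pair, made of 1 probe with AF and 1 with AM in its identifier. The pairs thus compare differently named kinds of probe. None of the 28 was among them, so no called sequence had a second tested probe of the other kind. The levels within the 236 pairs showed little correlation (Pearson r = −0.0755). The differences between exposed and salt fish were positively correlated within the pairs (Pearson r = 0.335), and 137 pairs had differences of the same sign. In 2 pairs both probes had an unadjusted limma p below 0.05, and both of these pairs had differences of the same sign. A tested probe whose contig name differs from that of UF_Ppr_AF_106707 in its last part alone was at −4.35 on average in exposed fish and −3.64 in salt fish, a difference of −0.71 (limma adjusted p = 1).

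The dose of 2.5 ppm was measured on 3 arrays against the same salt arrays, and values of both doses are given side by side. UF_Ppr_AF_106707 averaged −5.44 ± 0.06 in salt, −0.28 ± 1.03 at 1.25 ppm and 0.48 ± 0.50 at 2.5 ppm (SD, n = 3 each). UF_Ppr_AF_109055 averaged −6.15 ± 0.48, −1.86 ± 0.99 and −1.16 ± 0.94 in the same order. For both the ranges at the 2 doses overlapped, and the step between doses was 0.76 ± 0.86 and 0.71 ± 0.86 log2 units (SE, n = 3 per group; limma adjusted p = 1 for both), with 95% intervals of −1.04 to 2.56 and −1.09 to 2.50. The 28 probes as a list had a median difference from salt of 2.22 at 2.5 ppm and 1.39 at 1.25 ppm. The step for them had a median of 0.75 and spread between −0.11 and 2.14, against −0.06 for all tested probes, in arrays that the choice of the 28 had used in part.

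Tested directly, the step raised 2 probes at 2.5 ppm over 1.25 ppm and lowered 0 (0.0154% and 0%), with 531 at an unadjusted p below 0.05 (4.1%). Both are named here after their values were seen. UF_Ppr_AF_103109 was at 4.42, 4.12 and 4.3 on the 2.5 ppm arrays, against 2.43, 1.59 and 1.02 on the 1.25 ppm arrays, a rise of 2.60 ± 0.41 (SE, n = 3 per group; limma adjusted p = 0.0224). At 1.25 ppm UF_Ppr_AF_103109 did not pass against its salt arrays, which were at 0.56, 0.75 and 0.88 (difference 0.95 ± 0.41, SE, n = 3 per group; limma adjusted p = 0.738). UF_Ppr_AF_106867 was at 3.64, 3.23 and 3.21 on the 2.5 ppm arrays, against 2.09, 2.18 and 2.02 on the 1.25 ppm arrays, a rise of 1.26 ± 0.18 (SE, n = 3 per group; limma adjusted p = 0.0156). It was 1 of the 28, with 1.02, 0.78 and 0.61 on the salt arrays and a rise of 1.29 ± 0.18 at 1.25 ppm (SE, n = 3 per group; limma adjusted p = 0.00224). The 3 groups of UF_Ppr_AF_106867 did not overlap, and its rise over salt and its step were nearly equal. Without the 5 arrays that stood apart the step raised 16 probes (0.124%) and lowered 2 (0.0154%), normexp called 0, and without any of the 6 arrays in turn 0 to 5 were called, 0 of them without 1.25 ppm replicate 2 or 3 or 2.5 ppm replicate 4, 1 without 2.5 ppm replicate 6, 3 without 2.5 ppm replicate 5 (1 higher, 2 lower) and 5 without 1.25 ppm replicate 1.

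In a principal component analysis of the 9 pure arrays the first component held 32.6% of the variance. The scores of the salt arrays were 28.5, 29.5 and 26, those of the 1.25 ppm arrays −0.01, −10.4 and 10.7, and those of the 2.5 ppm arrays −56.2, −9.48 and −18.6. On this component the 3 salt arrays lay close together and apart from all exposed arrays, and the 2 doses overlapped, at 1.25 ppm replicate 2 and 2.5 ppm replicate 5. The array at −56.2, 2.5 ppm replicate 4, had the fewest probes well above background of the series (10930). Over all tested probes, 1.25 ppm arrays correlated with salt arrays (median 0.98) about as closely as with each other (median 0.979), with ranges of 0.974 to 0.985 for both.

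The fresh and aged exposures have their own salt arrays, but each probe's spread was estimated over all arrays. The slides were also laid out alike. Replicates 1 to 3 lay on slides 4, 1 and 2 at pure 1.25 ppm, fresh 10 ppm and aged 10 ppm, and salt replicates 7 and 8 lay on slides 2 and 3 in every source. What the shared slides add to the differences set side by side here was not tested. Their doses differ from 1.25 ppm, so no difference between sources was tested. The 28 probes had median differences of 0.99 at fresh 5 ppm and 1.20 at fresh 10 ppm, with 28 of 28 above 0 at both doses, while 46.1% and 65.9% of all tested probes were. At aged 10 and 20 ppm the medians were 1.08 and 1.27, with 28 and 26 of 28 above 0, against 38.5% and 42.6% of all probes. By limma 8 of the 28 were called higher at fresh 5 ppm and 17 at fresh 10 ppm, where 0.0927% and 0.355% of all tested probes were. At aged 10 and 20 ppm 16 of the 28 were called each time, against 0.209% and 0.34% of all tested probes. Without the 5 arrays that stood apart, 14 and 16 were called at fresh 5 and 10 ppm (0.239% and 0.27% of all tested probes). In that fit 2 and 3 were called at aged 10 and 20 ppm (0.0618% and 0.0309% of all tested probes), with 1 aged salt array left. The medians were then 1.11 at both aged doses, and the counts above 0 were 28 and 26 as before.

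**Figure D4:**
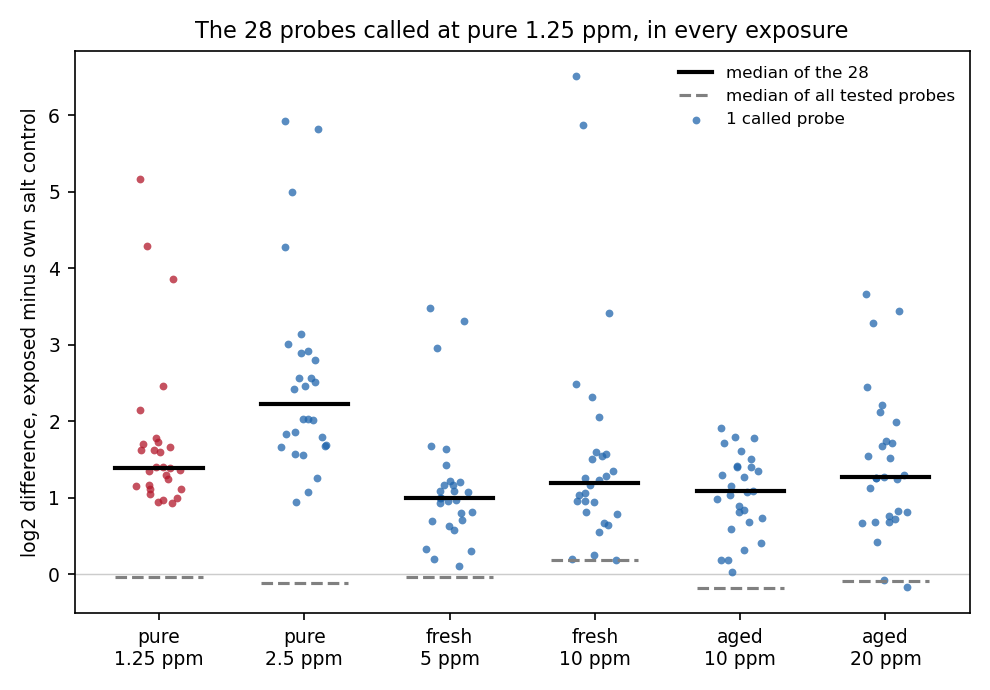
Difference from the salt control of the same source (log2, y axis) for the 28 probes called at pure 1.25 ppm, in each of the 6 exposures (x axis), with 1 point per probe. Solid bars are medians of the 28 (0.99 to 2.22 outside pure 1.25 ppm) and dashed bars medians of all tested probes; pure 1.25 and 2.5 ppm share their salt arrays, the other sources do not.

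For the called probes with the largest rises the values of each exposure are given side by side. UF_Ppr_AF_106707 differed from its own salt arrays by 3.48 ± 0.86 at fresh 5 ppm (limma adjusted p = 0.202) and by 6.51 ± 0.86 at fresh 10 ppm (adjusted p = 0.00092; SE, n = 3 per group). With aged oil sands the differences were 0.19 ± 0.86 at 10 ppm (limma adjusted p = 0.892) and 3.66 ± 0.86 at 20 ppm (adjusted p = 0.0886; SE, n = 3 per group). UF_Ppr_AF_109055 was not well above background on any fresh salt array, so its fold there is a bound, taken against the lowest signal well above background on each array or the probe's own where higher. It was at least 6.72-fold higher at fresh 5 ppm (limma adjusted p = 0.299) and at least 50.5-fold higher at fresh 10 ppm (adjusted p = 0.00203). At aged 10 and 20 ppm, where 2 of 3 salt arrays were well above background, its differences were 0.18 and 3.28 (limma adjusted p = 0.897 and 0.171). The aged salt arrays of UF_Ppr_AF_106707 lay between −5.15 and −0.997, a range wider than in the other salt groups, and 2 of them stood apart. Without the 5 arrays, 1 aged salt array was left, and 1 exposed array at aged 20 ppm. The differences of UF_Ppr_AF_106707 at aged 10 and 20 ppm were then 1.99 and 5.69. In the same fit UF_Ppr_AF_109055 passed at fresh 5 ppm (at least 6.72-fold, limma adjusted p = 0.0316) and at fresh 10 ppm (at least 51.3-fold, adjusted p = 0.000769). At aged 20 ppm, where 1 array of each group is left, it was at least 13.2-fold higher.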

How the data were processed

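Total RNA was labelled with Cy3 and hybridised to one-colour Agilent arrays, per the labels' protocols. The processed, median and local background signals are intensities on a linear scale, deposited as scanned; per the file headers, Feature Extraction 10.7.1.1 made them, and flags mark spots well above background. The authors' value table holds log2 values of the same arrays, with a floor at 3.5, column medians of 7.36 to 7.43 and values not centred by probe; which software and background step made it is not given in the sources used here.

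From each array's 15744 spots, 536 control spots were left out. The log2 processed signal minus the array's 75th percentile entered a linear model in limma 3.58.1 (R 4.3.3) with 1 mean for each group and all 27 arrays (18 residual degrees of freedom). The 12949 of 15208 probes flagged as well above background by 3 or more of the 6 arrays were tested; a call needed an adjusted p (Benjamini-Hochberg) under 0.05. The procedure was tested on simulated data. The simulation drew independent normal noise for each probe and held no differences between slides or in quality between arrays. No depth exists for arrays; their number limits the precision.

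Gene lists and organ markers could not be applied, since nothing pairs probes with genes. The rule for named probes was the 2 called probes with the largest rise and, no fall being called, the 2 falls with the smallest p. No probe sequence was used here. The comparison, the rule and the alternatives were chosen with earlier results of these data known. Alternatives covered background correction (normexp, offset 50, on the median signal, since the files used here hold no mean signal), quantile normalization, the authors' values, the filter, the arrays in the fit, slide, array weights, the prior, a minimum fold of 1.5 and leaving out each array.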

Additional observations from a re-analysis of the deposited data

Results flagged for a closer look

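The difference between the changes at 2.5 and 1.25 ppm of pure naphthenic acids, tested as the step between the doses because both have the same salt arrays, passed for 2 probes, UF_Ppr_AF_103109 and UF_Ppr_AF_106867, both higher at 2.5 ppm. Of the 12949 tested probes 531 had an unadjusted limma p below 0.05 for this step, a share of 4.1% that does not exceed the threshold itself. The groups of 3 arrays were too small for a search for single outlying arrays.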

How the results depend on the processing

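The 28 probes called at 1.25 ppm were all above 0 under every alternative run (26 of 26 where 2 were filtered out), while their number past the threshold varied. Where only the arrays in the fit, their weights, the prior or the filter changed, this sign was fixed in advance. The groups of these probes do not overlap, and their means keep their order in such fits. The count was 0 with normexp background correction (242 at an unadjusted p below 0.05), 17 with quantile normalization, 4 with only the 6 arrays, 12 with the 9 pure arrays, 58 without the 5 arrays that stood apart (55 higher, 3 lower), 44 with a trended and robust prior, 1054 with array weights (525 higher, 529 lower) and between 6 and 16 when 1 array was left out, the fewest without salt replicate 8; 6 probes were called in all 6 of those fits. It was 29 with the authors' values (19 of them among the 28), 25 with no filter on dim probes, 36 with probes well above background on all 6 arrays and 28 with a minimum of 1.5-fold. Alternatives chosen after seeing the data gave 0 with normexp without the 5 arrays, 16 with normexp on only the 6 arrays, 26 with normexp without the 11 arrays that had a spot of high local background (18 of them among the 28), 63 with the authors' values without the 5 arrays and 748 with array weights without them (371 higher, 377 lower). On those 11 arrays normexp left 0.48 to 4.49 log2 units between the 10th and 90th percentile of probes, against 4.51 to 5.84 on the other 16. None of the 6 arrays of 1.25 ppm and salt was among the 11, but 2.5 ppm replicate 4, which enters the step, was. What moved the count was not tested for any setting. The step count of 2 was 0 with normexp, 8 with the authors' values, 0 with only the 6 arrays, 4 with the 9 pure arrays, 18 without the 5 arrays, 4 with slide as a random block, 16 with the trended and robust prior, 197 with array weights (91 higher, 106 lower), 4 with the filter on all 6 arrays and 0 to 5 when 1 array was left out. The median difference of all probes was −0.042, and −0.093 to 0.0071 when 1 array was left out. With normexp it was 0.064. Leaving out the 11 arrays could not alter that value, as the 6 compared arrays were not among them. UF_Ppr_AF_106707 missed the threshold in 6 of 24 alternatives and UF_Ppr_AF_109055 in 13 of 23. UF_Ppr_AF_107363 and UF_Ppr_AF_111748 passed it in 2 and 4 of 24. None of these probes changed sign, which many of the settings could not alter for groups that do not overlap. No paired analysis was possible because the groups compared share no replicate number (1 to 3, 4 to 6 and 7 to 9). Each group held 3 arrays, and dim probes lay near background. What limited the calls was not tested.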
